A study of Mus musculus with 26 samples.

Results

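The 9 genes described here (Myo10, App, Amz1, Adamts14, Lrrc75b, Abhd15, Atp8b4, Adgrg5 and Nav2) were chosen from a table of 24411 genes for being lower in regulatory T cells (Treg) than in naive or bulk conventional CD4+ T cells of this same data set. The question asked of them was which return in Treg that carry a mutant Foxp3. All 9 were among the 12227 genes that passed the filter on low counts, which the high conventional libraries alone would let them pass. The working name for the set, genes silent in Treg, did not hold for 2 of them, and held for others only in some Treg groups. Abhd15 was detected in effector Treg, and Adgrg5 in the control Treg of the Foxp3 knockout. Myo10 was lower but well detected in Treg, and Nav2 was abundant in bulk and effector Treg and low in central Treg and in Treg without BATF.

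Poly(A) RNA came from CD4+ T cells of C57BL6/J mice (lymph nodes and spleen), sorted freshly into 13 groups of 2 libraries each. Foxp3R397W Treg were CD4+hCD2+GFP- cells of Foxp3R397W-IRES-hCD2/Foxp3-IRES-GFP mice, in which human CD2 (hCD2) reports the allele with the point mutation and GFP the wild-type allele. Foxp3KO Treg were the same gate in Foxp3fs101-IRES-hCD2/Foxp3-IRES-GFP mice, whose hCD2 allele is the knockout. Each had its own control Treg, the same gate in Foxp3WT-IRES-hCD2/Foxp3-IRES-GFP mice. Since these mice also carried a wild-type Foxp3 allele, marked by GFP, wild-type Treg could remain in the hosts. BATFcKO Treg (CD4+YFP+hCD2-, Foxp3-IRES-YFPCre/Foxp3-IRES-hCD2 with Batf flox/flox) lost Batf through a Cre driven by Foxp3, and were set against wild-type (WT) Treg of the same gate from Foxp3-IRES-YFPCre/Foxp3-IRES-hCD2 mice, called YFP-sorted WT Treg here. BATFKO Treg (CD4+hCD2+, Foxp3-IRES-hCD2 with Batf-/-) lacked Batf in every cell of the mouse, and WT Treg and Tconv (hCD2- CD4+ cells) came from Foxp3-IRES-hCD2 mice. Tconv libraries were grouped by their titles, since another of their labels calls them Treg beside an hCD2- gate. The remaining groups, also from Foxp3-IRES-hCD2 mice, were effector Treg (eTreg, hCD2+CCR7loCD62Llo), central Treg (cTreg, hCD2+CCR7hiCD62LhiCD44lo), effector conventional cells (Teff, hCD2-CCR7loCD62Llo) and naive conventional cells (Tnaive, hCD2-CCR7hiCD62LhiCD44lo). The sources used here give neither ages nor whether the 2 libraries of a group came from separate animals. The p-values therefore measure only the spread between libraries within groups, estimated over all 26 libraries together.

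Foxp3 is the transcription factor that defines Treg. It keeps a set of genes of activated and resting conventional T cells low while the Treg genes are expressed, and mice without functional Foxp3 develop fatal autoimmunity in which cells with an active Foxp3 locus survive without suppressor function. BATF is an AP-1 factor that pairs with IRF4 and drives the effector state of both Treg and conventional cells.

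Libraries held 26321134 to 34613707 counts in the Foxp3KO Treg and their controls, 9774025 to 10641332 in the 4 sorted wild-type populations and 5615929 to 7300917 in the others. Levels are given as CPM (counts scaled to a common library size by TMM). Foxp3 averaged 351 ± 11.7 CPM in Foxp3R397W Treg and 416 ± 51.6 CPM in their controls, and 111 ± 3.05 CPM in Foxp3KO Treg and 337 ± 16.1 CPM in theirs (SD, n = 2 each). A point mutation need not lower the RNA, so the first pair of values checks nothing. Batf averaged 17.7 ± 2.52 CPM in BATFcKO Treg and 63.1 ± 6.64 CPM in their WT Treg. Tconv, Teff and Tnaive averaged 3.32, 0.283 and 2.77 CPM of Foxp3. T cell markers were high in all groups. The Foxp3KO Treg and their controls stood apart together: Cd3e was at 321 to 342 CPM in those 4 libraries and at 577 to 867 CPM in the other 22, and Cd8a was at 6.04 to 8.33 CPM against 0.134 to 2.35 CPM. For this reason each mutant was compared with its own controls only, and levels set across those sets are descriptions. In bulk samples, fewer cells of a type and less RNA per cell cannot be told apart.

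The levels by which the genes were chosen are given first, without a test. In cTreg all 9 genes lay below Tnaive in both libraries, and in WT Treg all but Nav2 lay below Tconv. Abhd15 had 0.376 and 0.297 CPM in cTreg, against 17.1 and 16.3 CPM in Tnaive, a count ratio 49.4-fold lower (95% exact interval 23.7 to 124, counting error only). App was 42.5-fold lower (28.4 to 66.7), Amz1 28.0-fold (14.5 to 61.9), Atp8b4 22.9-fold (17.9 to 29.7), Adamts14 18.8-fold (12.6 to 29), Lrrc75b 17.2-fold (11.7 to 26.1) and Myo10 9.71-fold (8.25 to 11.5). The gap was narrower for Adgrg5, at 7.05-fold lower (2.46 to 27.7), and for Nav2, at 4.02-fold lower (3.29 to 4.94). Between WT Treg and Tconv the order was different. Atp8b4 was 52.0-fold lower there (31.8 to 91.4) and Abhd15 6.28-fold lower (4.01 to 10.3), whereas Nav2 was 3.39-fold higher (3.04 to 3.79).

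**Figure D1:**
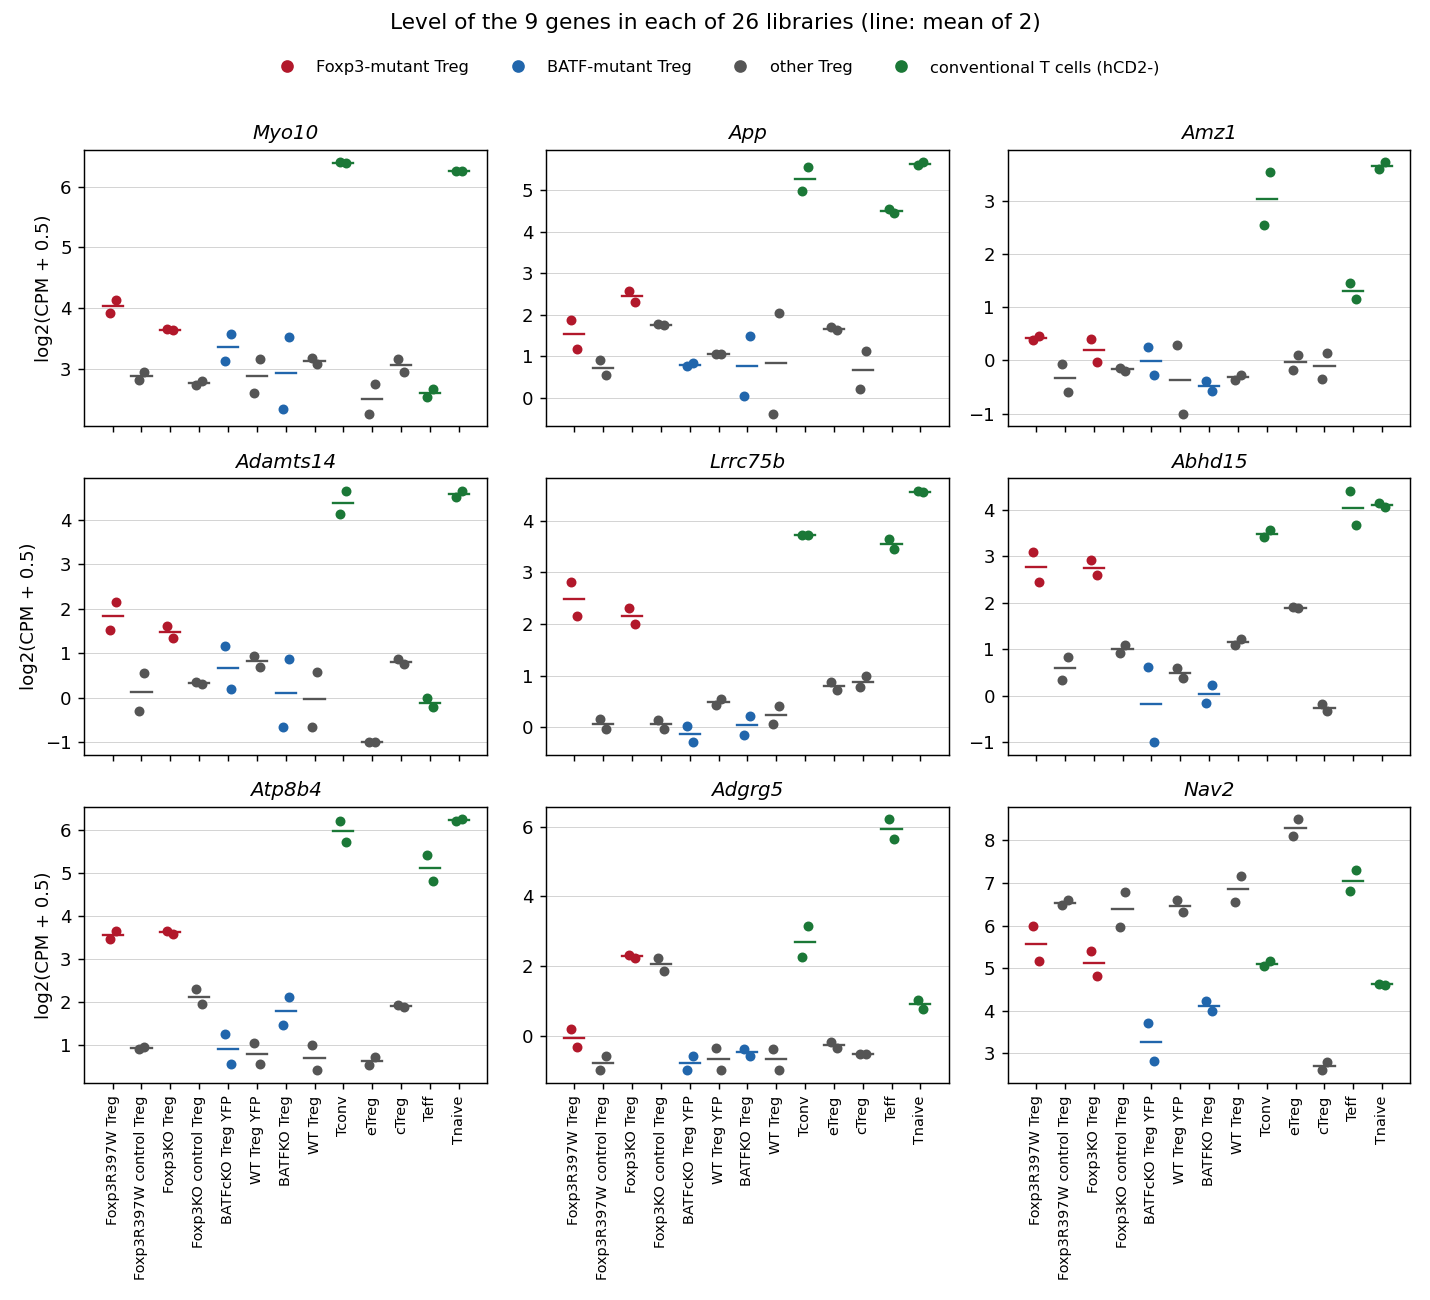
Level of each of the 9 genes, as log2(CPM + 0.5), in each of the 26 libraries; points are libraries, lines are means of 2, and the vertical range differs between panels. The Foxp3-mutant Treg sit above their controls to the right of them for Lrrc75b, Abhd15, Atp8b4, Adamts14 and Myo10, whereas Nav2 is highest in eTreg.

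Levels can be compared between genes only per length. Per kilobase of merged exon, Tnaive held a mean of 11.1 RPKM of Atp8b4, 7.54 of Myo10, 5.5 of Abhd15, 5.04 of Lrrc75b, 4.53 of Adamts14, 3.79 of App, 1.81 of Amz1, 0.746 of Nav2 and 0.434 of Adgrg5. On that scale Atp8b4 was the most abundant of the 9 in naive cells, and Adgrg5, at 19.7 RPKM, was the most abundant in Teff. The genes also differed in which conventional cells held them. Myo10 and Adamts14 were high in Tnaive and Tconv and low in Teff, App, Lrrc75b, Atp8b4 and Abhd15 were high in all 3 conventional groups, Amz1 was intermediate in Teff, and Adgrg5 was high in Teff. Across the 13 group means of log2(CPM + 0.5), Pearson's r was 0.975 between Myo10 and Adamts14, 0.951 between Lrrc75b and Atp8b4 and 0.945 between App and Amz1, while Nav2 had r between -0.391 and 0.307 with the other 8. These r values describe groups that share the wide step between Treg and conventional cells.

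In Foxp3R397W Treg, 5 of the 9 genes rose relative to control Treg and none fell. In Foxp3KO Treg the same 5 rose and Nav2 fell. They were Lrrc75b, Abhd15, Atp8b4, Adamts14 and Myo10. Of all 12227 genes tested, 2.18% were called higher and 3.94% lower in Foxp3R397W Treg, and 2.62% higher and 6.39% lower in Foxp3KO Treg, a gene being called at an edgeR adjusted p below 0.05 (quasi-likelihood test, Benjamini-Hochberg over all tested genes). The median log2 fold change of the 9 was 2.33 in Foxp3R397W Treg and 0.92 in Foxp3KO Treg, beside -0.006 and 0.011 over all tested genes. Genes chosen for a low level in Treg have little room to fall. The Foxp3R397W controls held 1 read of Adgrg5, 4 of Amz1, 7 of Lrrc75b and 8 of Adamts14 in all. The absence of falls there and the sign of the medians are therefore partly set by the choice of genes. App, Amz1 and Adgrg5 were not called in either mutant.

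**Figure D2:**
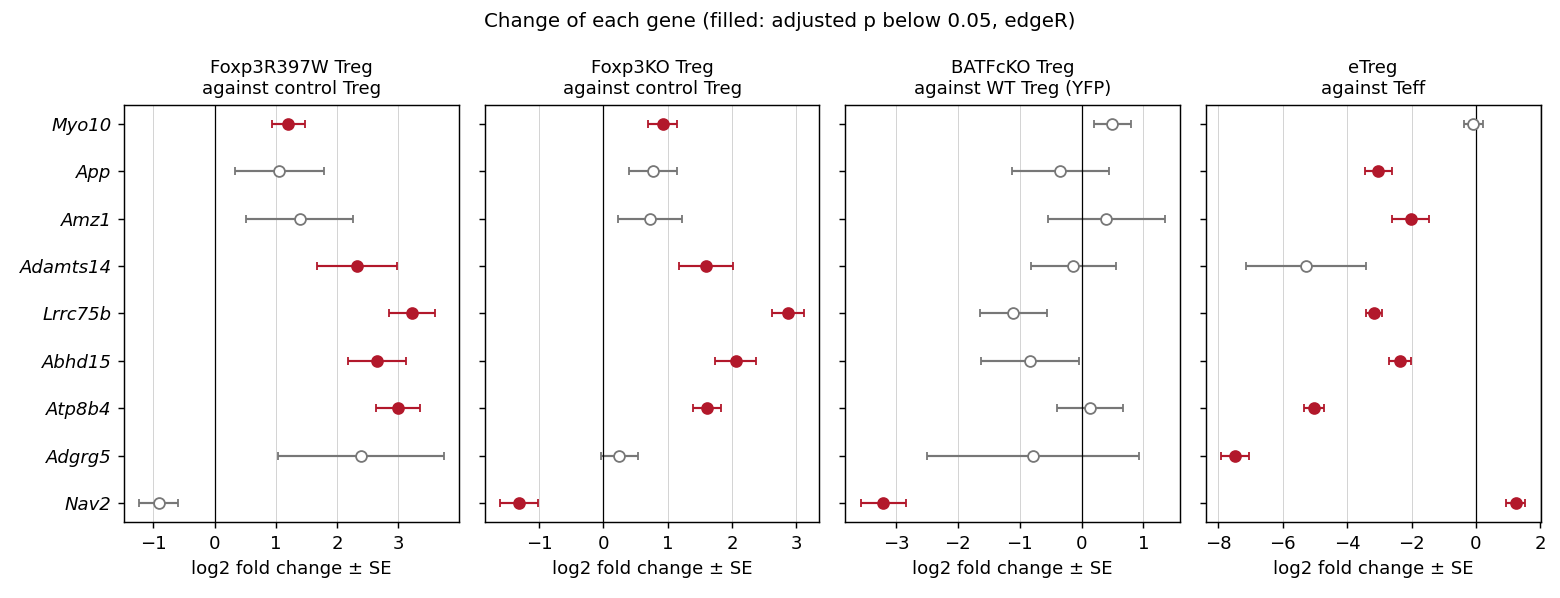
Log2 fold change ± SE of each gene (horizontal axis) in the 4 comparisons that did not choose the genes; filled red points passed an edgeR adjusted p of 0.05, open grey points did not, and axis ranges differ between panels. Lrrc75b, Abhd15, Atp8b4, Adamts14 and Myo10 are filled on the right in both Foxp3 mutants, and Nav2 alone is filled in BATFcKO Treg. The eTreg point of Adamts14 is a fitted value against 0 reads in eTreg and gives no size.

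Lrrc75b, Abhd15 and Atp8b4 had the smallest edgeR adjusted p of the set in both mutants. Lrrc75b encodes a leucine-rich repeat protein. It had 6.55 and 3.95 CPM in Foxp3R397W Treg, against 0.611 and 0.482 CPM in their controls. In Foxp3KO Treg it had 4.5 and 3.52 CPM, against 0.61 and 0.472 CPM. Every mutant library lay above every control library. The log2 fold change was 3.23 ± 0.37 in Foxp3R397W Treg and 2.88 ± 0.25 in Foxp3KO Treg (SE, edgeR adjusted p 3.2e-05 and 8.8e-07). BATFcKO Treg had 0.517 and 0.321 CPM, against 0.857 and 0.958 CPM in YFP-sorted WT Treg, resting on 2 to 6 reads a library, and the change was not called (edgeR adjusted p 0.66). Lrrc75b occupies chr10:75550123-75560330 on the minus strand of mm10 and has 4 merged exons in GENCODE M21. Its paralog Lrrc75a, at 1.61 ± 0.207 CPM in Foxp3R397W Treg and 1.41 ± 0.172 CPM in their controls, was not called in any of the 4 comparisons.

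Abhd15 is a membrane protein of the alpha/beta hydrolase fold, known in mouse adipocytes as the partner that stabilises the phosphodiesterase PDE3B. Its levels were 7.99 and 4.98 CPM in Foxp3R397W Treg, against 0.764 and 1.28 CPM in control Treg. Foxp3KO Treg held 7.03 and 5.57 CPM, against 1.38 and 1.62 CPM in controls. No mutant library overlapped a control library. Log2 fold changes were 2.65 ± 0.48 and 2.06 ± 0.32 (SE, edgeR adjusted p 0.0018 in Foxp3R397W Treg and 0.00032 in Foxp3KO Treg). Pde3b, the gene of that partner, changed the same way: it averaged 98.5 ± 16 CPM in Foxp3R397W Treg and 12.2 ± 0.674 CPM in controls, and 169 ± 19.6 CPM in Foxp3KO Treg and 29.1 ± 2.53 CPM in controls (SD, n = 2 each). Its log2 fold changes were 3.01 ± 0.18 and 2.54 ± 0.16 (SE, edgeR adjusted p 2.5e-08 in Foxp3R397W Treg and 1.7e-08 in Foxp3KO Treg), and it stood at 322 ± 31 CPM in Tnaive. Abhd15 values carry a limit of position. Its exons, at chr11:77515121-77538607 on the plus strand, share 29.09% of their length with Gm10392 and 10.81% with Trp53i13 on the opposite strand, and no source used here says whether counting took strand into account. Trp53i13 was itself called higher, with a mean of 21 CPM in Foxp3R397W Treg and 8.05 CPM in controls (log2 fold change 1.38 ± 0.27, edgeR adjusted p 0.0035), and of 18.6 CPM in Foxp3KO Treg and 11 CPM in controls (0.75 ± 0.22, edgeR adjusted p 0.035). Its part in the Abhd15 counts was not tested.

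Atp8b4 belongs to the P4-ATPases, a family of phospholipid flippases. It had 10.5 and 12 CPM in Foxp3R397W Treg, against 1.37 and 1.45 CPM in control Treg. Foxp3KO Treg had 12.1 and 11.5 CPM, against 4.39 and 3.34 CPM in controls. The mutant libraries of both experiments lay within a narrow span, and the controls of Foxp3KO Treg were higher than those of Foxp3R397W Treg. The log2 fold change was 2.99 ± 0.36 in Foxp3R397W Treg and 1.61 ± 0.22 in Foxp3KO Treg (SE, edgeR adjusted p 3.9e-05 and 9.5e-05). Of its relatives in the fixed list, the abundant Atp8b2 had 286 ± 10.3 CPM in Foxp3R397W Treg and 316 ± 30.5 CPM in controls and was not called, and Atp10a was called higher in Foxp3R397W Treg only (log2 fold change 0.41 ± 0.11, edgeR adjusted p 0.027). Tmem30a, the subunit that P4-ATPases need to leave the endoplasmic reticulum, averaged 142 ± 3.51 CPM in Foxp3R397W Treg and 155 ± 7.6 CPM in controls, and was not called.

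Myo10 and Nav2 are the cytoskeletal members. Myo10 is the unconventional myosin that carries cargo to the tips of filopodia. Foxp3R397W Treg had 14.7 and 17.1 CPM, against 6.57 and 7.23 CPM in controls, and Foxp3KO Treg had 12.1 and 11.9 CPM, against 6.18 and 6.48 CPM. Libraries of mutants and controls did not overlap. The log2 fold changes were 1.21 ± 0.28 and 0.92 ± 0.22 (SE, edgeR adjusted p 0.011 in each mutant), but both calls were fragile. Leaving out 1 library at a time moved the edgeR adjusted p to between 0.034 and 0.12 in Foxp3R397W Treg, with the call lost without mutant library 2 or either control library (replicates 3 and 4), and to between 0.061 and 0.089 in Foxp3KO Treg, with the call lost in all 4 fits. The log2 fold change stayed between 1.09 and 1.31 and between 0.90 and 0.97. With 4.3 to 17.1 CPM in the Treg libraries and 5.28 and 5.84 CPM in Teff, Myo10 was not silent in Treg. Among the other myosins of the list, Myo1f fell in Foxp3KO Treg (39.4 ± 10.3 CPM, against 77.2 ± 12.9 CPM in controls, edgeR adjusted p 0.0087) and in BATFcKO Treg (9.86 ± 1.52 CPM, against 71.1 ± 0.0369 CPM in YFP-sorted WT cells, edgeR adjusted p 8.3e-06).

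Nav2, a neuron navigator protein that binds microtubules, ran against the other 8. Foxp3R397W Treg had 63.1 and 35.1 CPM, against 88.9 and 96.1 CPM in controls, and the change was not called (log2 fold change -0.92 ± 0.31 SE, edgeR adjusted p 0.10). Foxp3KO Treg had 41.9 and 27.7 CPM, against 61.9 and 111 CPM in controls, and Nav2 was called lower (-1.31 ± 0.30, edgeR adjusted p 0.007). That call was lost without Foxp3KO library 2 (edgeR adjusted p 0.16), without control library 6 (0.24) and when only the 4 libraries compared were fitted (0.20), within a range of 0.0011 to 0.24 over all alternatives. Nav2 was lower still in Treg without BATF: 12.6 and 6.59 CPM in BATFcKO Treg, against 96 and 79.2 CPM in YFP-sorted WT Treg (log2 fold change -3.20 ± 0.37 SE, edgeR adjusted p 5.7e-05). Germline BATFKO Treg had 18.2 and 15.3 CPM, against 92.8 and 142 CPM in WT Treg, given without a test since WT Treg served to choose the genes. The sorted populations held 274 and 361 CPM in eTreg, 5.55 and 6.44 CPM in cTreg, 112 and 157 CPM in Teff and 24.2 and 23.9 CPM in Tnaive, so that effector cells of either lineage were above their resting counterparts. Nav2 is the longest gene of the set, at chr7:48908716-49610090 on the plus strand with 32228 bases of merged exon.

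Adamts14, Amz1 and App are 2 metalloproteases and a well-known protease substrate. Adamts14, which in vertebrates trims the amino-terminal propeptide of procollagen, had 2.4 and 3.95 CPM in Foxp3R397W Treg, against 0.306 and 0.964 CPM in controls. Foxp3KO Treg had 2.56 and 2.05 CPM, against 0.772 and 0.742 CPM. Mutants lay above controls without overlap, on 15 to 78 reads a mutant library and 2 to 22 reads a control library. The log2 fold change was 2.33 ± 0.66 in Foxp3R397W Treg and 1.59 ± 0.42 in Foxp3KO Treg (SE, edgeR adjusted p 0.043 and 0.022). Leaving out any 1 of the 4 libraries compared ended the call in each mutant, with edgeR adjusted p of 0.06 to 0.38 in Foxp3R397W Treg and 0.071 to 0.19 in Foxp3KO Treg. The log2 fold change then lay between 1.72 and 3.34 in Foxp3R397W Treg, highest without control library 4, and between 1.44 and 1.75 in Foxp3KO Treg. The other procollagen N-proteinase in the tested list, Adamts3, averaged 0.985 ± 0.264 CPM in Foxp3R397W Treg and 0.233 ± 0.102 CPM in controls, and was not called.

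App encodes the amyloid precursor protein, a transmembrane protein cut by secretases. It had 3.19 and 1.76 CPM in Foxp3R397W Treg, against 1.37 and 0.964 CPM in controls (log2 fold change 1.06 ± 0.72 SE, edgeR adjusted p 0.56). In Foxp3KO Treg it had 5.45 and 4.48 CPM, against 2.93 and 2.87 CPM in controls (0.78 ± 0.37 SE, edgeR adjusted p 0.26). All mutant libraries lay above their controls, yet the differences did not pass the test. A fit of only the 4 libraries of the Foxp3KO comparison did call App (edgeR adjusted p 0.0085, with a range of 0.0085 to 0.64 over all alternatives). Its close relative Aplp1 averaged 50.1 ± 1.11 CPM in eTreg and 41.2 ± 0.731 CPM in Teff, and 3.36 ± 0.695 CPM in cTreg and 2.38 ± 1.1 CPM in Tnaive, so it was high in the effector populations of both lineages. Aplp1 fell in both mutants, averaging 8.3 ± 1.59 CPM in Foxp3R397W Treg and 18 ± 2.35 CPM in controls, and 8.7 ± 1.95 CPM in Foxp3KO Treg and 16.3 ± 2.55 CPM in controls (log2 fold changes -1.13 ± 0.29 and -0.91 ± 0.24 SE, edgeR adjusted p 0.025 and 0.019). Psen2, a catalytic subunit of gamma-secretase, fell as well, with log2 fold changes of -0.82 ± 0.14 and -0.78 ± 0.14 (SE, edgeR adjusted p 0.0015 in Foxp3R397W Treg and 0.00085 in Foxp3KO Treg). Amz1, a zinc metallopeptidase of the archaemetzincin family, rested on 1 to 25 reads in these 8 libraries. It had 0.799 and 0.879 CPM in Foxp3R397W Treg, against 0.458 and 0.161 CPM in controls, and 0.821 and 0.48 CPM in Foxp3KO Treg, against 0.407 and 0.371 CPM (edgeR adjusted p 0.51 and 0.49).

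Adgrg5 is an adhesion G protein-coupled receptor. Foxp3R397W Treg had 0.639 and 0.293 CPM, against 0 and 0.161 CPM in controls, or 6 reads against 1 (count ratio 5.85, 95% exact interval 0.71 to 269; edgeR adjusted p 0.43). Foxp3KO Treg had 4.5 and 4.22 CPM, against 4.23 and 3.14 CPM in controls (log2 fold change 0.25 ± 0.29 SE, edgeR adjusted p 0.73). The higher level in the second pair was therefore a feature of both its groups, mutant and control alike, and in the other Treg groups no library exceeded 0.639 CPM. Cd8a was raised in the same 4 libraries, as given above, and the summed level of 8 CD8 and NK markers was 36.9 to 40.4 CPM in Foxp3KO Treg and 35.4 to 40.3 CPM in their controls, against 14.9 to 19.2 CPM in Foxp3R397W Treg and 14.8 to 16.5 CPM in theirs. Other genes also set these 4 libraries apart. Dcn, a stromal marker, was at 8.83 to 9.26 CPM in Foxp3KO Treg and 6.41 to 8.38 CPM in their controls. It had 0 reads in Foxp3R397W Treg and in theirs. Psenen averaged 57.3 and 62.7 CPM in the Foxp3KO pair, against 3.97 and 3.21 CPM in the Foxp3R397W pair. Summed B cell markers overlapped, at 10.3 to 12.4 and 17 to 17.5 CPM, against 12 to 20 and 15.3 to 16 CPM. The part of any of these genes in the Adgrg5 level was not tested.

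The 5 genes that rose did so only part of the way to the levels of Tconv and Tnaive. Set beside Tconv, whose libraries served to choose the genes, and as a description only, Abhd15 reached 60.3% of the Tconv mean in Foxp3R397W Treg and 58.6% in Foxp3KO Treg, and stood at 9.54% and 14.0% in their controls. Lrrc75b reached 41.3% and 31.5% in the mutants and 4.3% and 4.26% in the controls. Myo10 reached 19% and 14.3% in the mutants and 8.24% and 7.56% in the controls. Atp8b4 stood at 18.0% and 18.8% in the mutants and 2.26% and 6.18% in the controls, and Adamts14 at 15.2% and 11% in the mutants and 3.04% and 3.63% in the controls. App and Amz1 remained between 6.34% and 12.7% of Tconv in the mutants. Adgrg5, which was not called, stood at 7.4% in Foxp3R397W Treg and 1.28% in their controls. It stood at 69.2% in Foxp3KO Treg and 58.5% in their controls. Relative to Teff the shares of Abhd15 (39.2% and 38.1%), Lrrc75b (46.5% and 35.5%) and Atp8b4 (32.4% and 33.8%) lay closer together. Myo10 and Adamts14, both low in Teff, exceeded the Teff mean in the mutants and already in the controls. Myo10 stood at 286% and 216% of Teff in the mutants and 124% and 114% in the controls. Adamts14, with 9 reads in Teff, stood at 744% and 540% in the mutants and 149% and 177% in the controls.

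**Figure D3:**
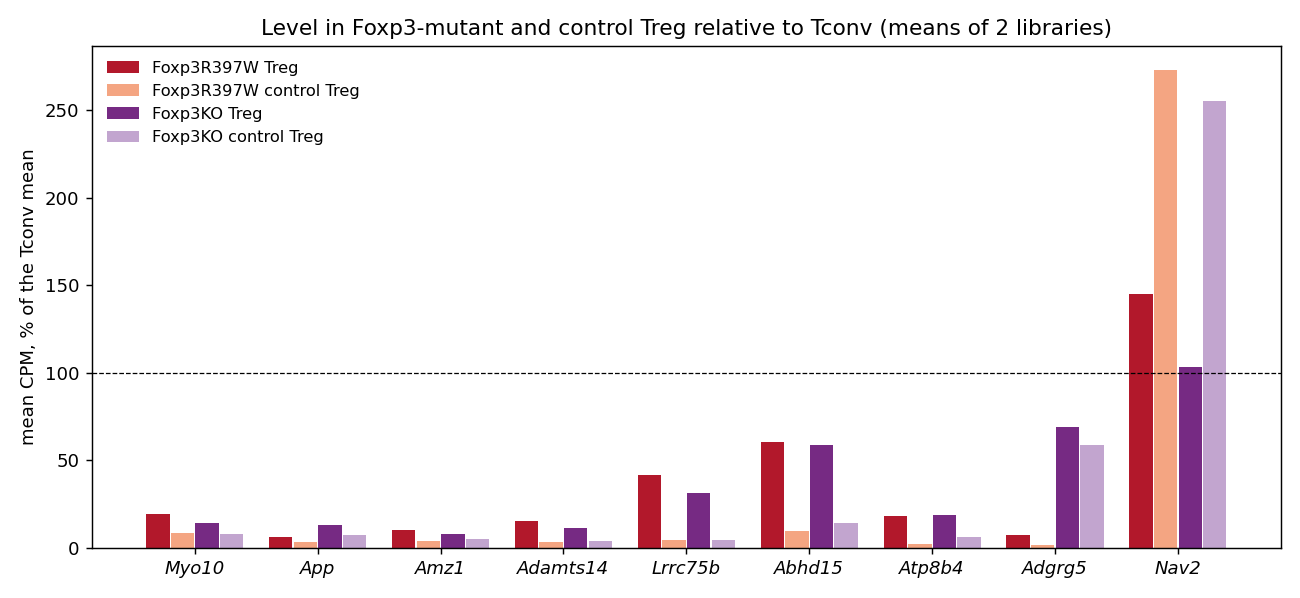
Mean CPM of each gene (2 libraries) in Foxp3R397W Treg, Foxp3KO Treg and the controls of each, as a percentage of the Tconv mean; bars are group means without an error, and the dashed line marks the Tconv level. Abhd15 reaches 60.3% and 58.6% in the mutants, Atp8b4 18.0% and 18.8%, and Nav2 exceeds the Tconv level in all 4 groups.

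Whether the mutants differed from each other was tested as the Foxp3KO effect minus the Foxp3R397W effect, each against its own controls. None of the 9 genes was called by edgeR (1 had an unadjusted p under 0.05) or by DESeq2, and over all tested genes 0.00818% were called higher and 0.00818% lower. The gene with the unadjusted p under 0.05 was Atp8b4, whose effect was lower in Foxp3KO Treg by -1.38 ± 0.45 on the log2 scale (SE, edgeR p 0.0061, adjusted p 1). Its mutant levels were alike and its controls differed, as given above. For Lrrc75b the difference was -0.35 ± 0.51, for Abhd15 -0.59 ± 0.61 and for Myo10 -0.29 ± 0.36.

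In BATFcKO Treg none of the 9 genes was called higher by edgeR or by DESeq2, and Nav2 alone was called lower, beside 0.319% of all tested genes called higher and 1.72% lower. The median log2 fold change of the 9 was -0.34, beside -0.015 over all tested genes. Myo10 had 8.27 and 11.4 CPM in BATFcKO Treg, against 5.57 and 8.46 CPM in YFP-sorted WT Treg, and the libraries overlapped (edgeR adjusted p 0.62). Atp8b4 had 1.9 and 0.964 CPM, against 1.57 and 0.958 CPM, and Abhd15 1.03 and 0 CPM, against 1 and 0.799 CPM. Several of these values rest on fewer than 12 reads. The difference itself, the mean of the Foxp3 mutant effects minus the BATFcKO effect, was called for 2 of the 9 genes, beside 1.1% of tested genes called higher and 0.973% lower. For Lrrc75b it was 4.15 ± 0.59 (SE, edgeR adjusted p 0.00048), called in all 12 fits that left out 1 library. For Nav2 it was 2.09 ± 0.43 (edgeR adjusted p 0.011), since Nav2 was lower in BATFcKO Treg by more than in the Foxp3 mutants, a call lost without BATFcKO library 2 (0.15), without YFP-sorted WT library 1 (0.061), with only the libraries compared (0.16) and without the filter on low counts (0.064). Abhd15 (3.19 ± 0.85) and Atp8b4 (2.16 ± 0.59) missed the threshold in edgeR with adjusted p of 0.061 and 0.076 and passed it in DESeq2 with 0.0061 and 0.014, over a range of 0.0054 to 0.3 for Abhd15 and 0.014 to 0.45 for Atp8b4 across all alternatives. Germline BATFKO Treg, given without a test, had 7 reads of Abhd15 against 23 in WT Treg and 40 reads of Atp8b4 against 16.

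The effector populations gave a second comparison, in libraries that did not serve to choose the genes. It is not independent of that choice. WT Treg and Tconv, which did serve, were sorted without the CCR7 and CD62L gates and can hold the same effector cells. In eTreg, 6 of the 9 genes were lower than in Teff and Nav2 was higher, beside 7.26% of all tested genes called lower and 8.21% higher. Atp8b4 had 0.956 and 1.15 CPM in eTreg, against 41.9 and 27.6 CPM in Teff (log2 fold change -5.03 ± 0.30 SE, edgeR adjusted p 1.8e-09). Lrrc75b had 1.34 and 1.15 CPM, against 12.1 and 10.5 CPM (-3.17 ± 0.26, edgeR adjusted p 5.4e-08). The eTreg libraries lay far below the Teff libraries in both. App had 2.77 and 2.59 CPM in eTreg, against 22.9 and 21.3 CPM in Teff (-3.03 ± 0.42, edgeR adjusted p 3.5e-05). Abhd15 had 3.25 and 3.17 CPM, against 20.7 and 12.3 CPM (-2.36 ± 0.33, edgeR adjusted p 3.8e-05). In eTreg Abhd15 was nonetheless above cTreg, with 67 reads against 7. Amz1 had 0.382 and 0.576 CPM in eTreg, against 2.25 and 1.73 CPM in Teff (-2.03 ± 0.57, edgeR adjusted p 0.019), a call lost without either eTreg library (0.16 and 0.072) or Teff library 1 (0.12). Myo10 did not separate the lineages here, with 4.3 and 6.24 CPM in eTreg and 5.28 and 5.84 CPM in Teff (edgeR adjusted p 0.93). Adamts14 had 0 reads in eTreg and 9 in Teff, a bound of at least 2.95-fold lower when eTreg is set to a group floor of 3 counts. It was not called by edgeR (adjusted p 0.066) and was called by DESeq2 (0.023), with a range of 0.016 to 0.24 over all alternatives. Nav2 was higher in eTreg by 1.24 ± 0.29 (edgeR adjusted p 0.0058), a call lost without eTreg library 2 (0.079), without Teff library 1 (0.11) and with only the 4 libraries compared (0.057).

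Adgrg5 showed the widest gap between effector populations, at 0.382 and 0.288 CPM in eTreg, against 73.5 and 49.8 CPM in Teff (log2 fold change -7.47 ± 0.43 SE, edgeR adjusted p 1.2e-09). Leaving out any 1 of these libraries kept the log2 fold change between -7.73 and -7.17. It was 45.0-fold higher in Teff than in Tnaive by counts (95% exact interval 30.8 to 68.5), a description only since Tnaive served to choose the genes. Summed markers of some other cells were also higher in Teff, and those of others lower. The 8 B cell markers summed to 8.76 to 11.7 CPM in Teff and 22.9 to 25.2 CPM in eTreg. Erythroid and platelet markers summed to 2.92 to 3.52 CPM in Teff and 4.51 to 4.78 CPM in eTreg. All 8 CD8 and NK markers were detected in Teff, summing to 166 to 226 CPM, against 17.4 to 19.2 CPM in eTreg with 6 of 8 detected and Ncr1 and Klra1 at 0. The 8 plasmacytoid dendritic markers summed to 231 to 611 CPM in Teff and 146 to 158 CPM in eTreg, with Siglech at 20 to 92.3 CPM in Teff and 0 reads in eTreg. All 11 myeloid and dendritic markers were detected in Teff, summing to 82.5 to 248 CPM, against 16.2 to 21.6 CPM in eTreg with 10 of 11 detected and Clec10a at 0. Mpeg1 among them was at 37 to 161 CPM in Teff and 2.39 to 3.65 CPM in eTreg. Cd8a stayed at 0.912 to 2.35 CPM and Ncr1 at 0.879 to 1.09 CPM in Teff. Klrb1c reached 84 to 126 CPM there and Klrk1 47 to 67.8 CPM. Cd8b1 was lower in Teff, at 6.48 to 7.13 CPM, against 8.64 to 8.7 CPM in eTreg. Csf1r, a myeloid marker, was at 2.28 to 3.71 CPM in Teff and 3.15 to 4.61 CPM in eTreg. The part of these markers in the Teff levels was not tested. Klrk1, the gene of the activating receptor NKG2D, was also the tested gene whose 13 group means followed Adgrg5 most closely (Pearson's r 0.986), and Klrb1b was among the next 2 (0.952). Reads of Klr genes can be shared between close paralogs.

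The genes nearest to the other members, by the same r over 13 group means of log2(CPM + 0.5), were Adamts14 for Myo10 and the reverse (0.975), Gtf2i for Atp8b4 (0.975), Klhl5 for both Abhd15 (0.965) and Lrrc75b (0.955), Stim1 for App (0.966), Pxylp1 for Amz1 (0.963) and Maged1 for Nav2 (0.962). Cd40lg, the CD40 ligand of helper T cells, was next but 1 for Abhd15 (0.951). Mctp2 was second for both Atp8b4 (0.967) and Lrrc75b (0.954).

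Other genes known to separate conventional cells from Treg changed in the same experiments. Of a list of 30 conventional T cell genes, 29 were tested. In Foxp3R397W Treg 12 were called higher and 1 lower (median log2 fold change 0.55), and in Foxp3KO Treg 12 were also called higher and 1 lower (median 0.62). Of all tested genes, 2.18% were called higher and 3.94% lower in Foxp3R397W Treg, and 2.62% higher and 6.39% lower in Foxp3KO Treg. Besides Pde3b, those with the smallest p in both mutants included Tcf7, a transcription factor of naive and memory T cells, at 1430 ± 52.1 CPM in Foxp3R397W Treg and 771 ± 15 CPM in controls (log2 fold change 0.89 ± 0.11 SE, edgeR adjusted p 6.5e-05). Cd40lg averaged 66.5 ± 13.4 CPM in Foxp3R397W Treg and 31.3 ± 2.33 CPM in controls, and 71.6 ± 0.946 CPM in Foxp3KO Treg and 35.7 ± 0.495 CPM in controls (edgeR adjusted p 0.00012 and 7e-05). Tnfsf11, the gene of RANKL, named after its values were seen, was the listed gene called lower in both. In BATFcKO Treg 1 of the 29 was called higher and 2 lower (median -0.014), and between eTreg and Teff 1 was higher and 19 lower (median -1.27). The shares of all tested genes were 0.319% higher and 1.72% lower in BATFcKO Treg, and 8.21% higher and 7.26% lower in eTreg against Teff. Of 20 Treg core genes, 16 fell and none rose in Foxp3R397W Treg (median -1.10), and 17 fell and none rose in Foxp3KO Treg (median -1.11). The lists were written with earlier results of these data known and are given as counts. Among 42 tested relatives and partners of the 9 genes, 2 rose and 2 fell in Foxp3R397W Treg and 2 rose and 3 fell in Foxp3KO Treg, with Pde3b the only one called higher in both. These counts are near the shares given for all tested genes and are no result about the relatives.

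**Figure D4:**
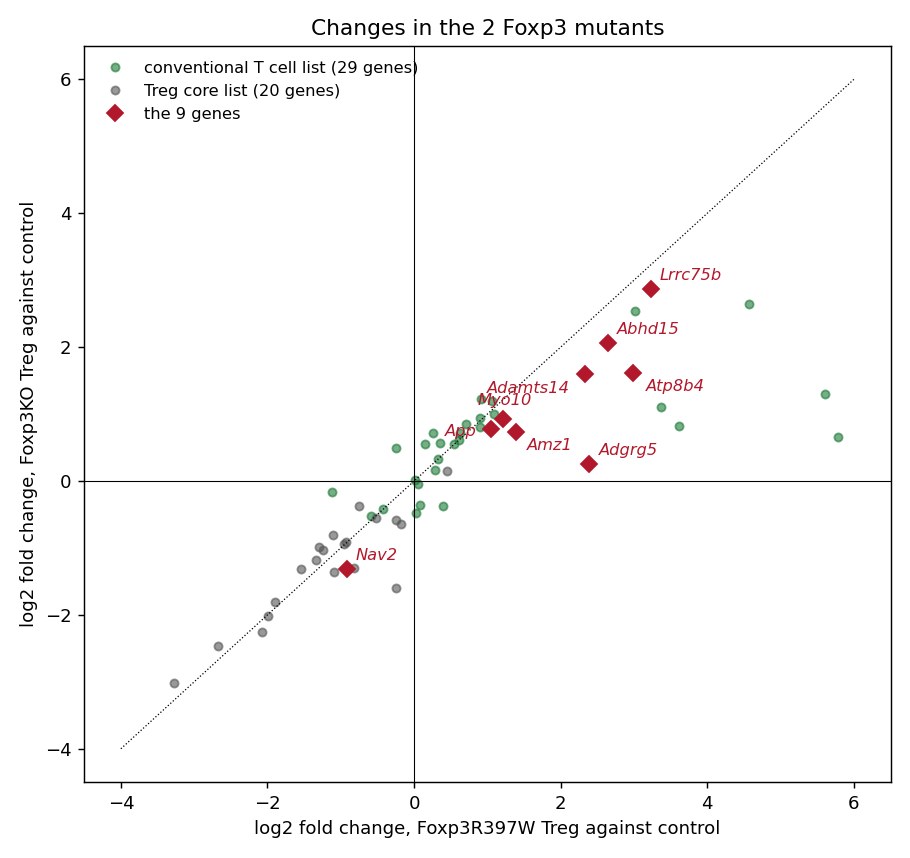
Log2 fold change in Foxp3R397W Treg (horizontal) against that in Foxp3KO Treg (vertical), each relative to its own controls, for the 9 genes (red diamonds), the 29 tested conventional T cell genes (green) and the 20 Treg core genes (grey); the dotted line marks equal change. Lrrc75b, Abhd15, Atp8b4 and Adamts14 lie to the upper right and Nav2 lies among the Treg core genes; the far-right green points are fitted values of genes with few or 0 reads in the controls.

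The 250 bases before the RefSeq start site are shown for the genes that rose in both mutants and have an entry in the promoter table, since these moved together. They are printed 5′ to 3′ on the strand of the gene, with the ETS core in capitals (GGAA, or TTCC where it lies on the other strand). Coordinates are on GRCm38.p6, the assembly of mm10, and sequences are from RefSeq. Atp8b4 is at chr2:126491554-126491803 on the minus strand and Abhd15 at chr11:77514867-77515116 on the plus strand. Adamts14 is at chr10:61273420-61273669 on the minus strand and the first of 2 Myo10 start sites at chr15:25622300-25622549 on the plus strand. The Atp8b4 window lies within the GENCODE M21 span of the gene (chr2:126320973-126500674), before an internal start site. So do the second Myo10 window and those of Nav2 in their genes, which are not shown.
Atp8b4: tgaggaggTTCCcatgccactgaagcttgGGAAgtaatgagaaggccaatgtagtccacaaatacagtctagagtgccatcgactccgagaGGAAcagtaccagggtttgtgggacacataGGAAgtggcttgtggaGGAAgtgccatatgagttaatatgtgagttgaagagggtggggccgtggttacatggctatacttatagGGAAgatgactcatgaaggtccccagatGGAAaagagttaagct
Abhd15: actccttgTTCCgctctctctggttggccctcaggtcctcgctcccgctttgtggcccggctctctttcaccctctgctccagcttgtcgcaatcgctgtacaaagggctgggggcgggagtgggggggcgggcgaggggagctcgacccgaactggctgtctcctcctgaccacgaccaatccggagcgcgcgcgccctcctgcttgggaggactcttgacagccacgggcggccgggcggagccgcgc
Adamts14: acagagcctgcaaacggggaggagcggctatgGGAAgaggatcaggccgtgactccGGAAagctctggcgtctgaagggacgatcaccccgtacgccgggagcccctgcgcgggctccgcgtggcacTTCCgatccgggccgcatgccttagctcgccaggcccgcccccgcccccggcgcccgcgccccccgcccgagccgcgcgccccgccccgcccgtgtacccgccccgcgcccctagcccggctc
Myo10: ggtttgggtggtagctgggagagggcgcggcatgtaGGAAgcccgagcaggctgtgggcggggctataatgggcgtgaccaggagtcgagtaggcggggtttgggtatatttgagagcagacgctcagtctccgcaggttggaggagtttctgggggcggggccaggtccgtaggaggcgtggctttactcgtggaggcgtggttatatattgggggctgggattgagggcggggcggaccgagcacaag
The table matched 8 of the 9 genes, with 10 windows in all, Lrrc75b having none. The windows differed in composition, at 48.0% G and C in Atp8b4, 62.8% in the first Myo10 window, 68.8% in Abhd15 and 76.4% in Adamts14. The second Myo10 window had 46.0%. The forkhead letters TAAACA, searched on both strands like the other motifs, occurred in 0 of the 10 windows and in 12% of all 32851 windows of the same length. The TCF/LEF letters CTTTGA occurred in 0 of 10 and in 13.8% of all. GGAA was in 10 of 10 and in 93.4% of all. The 4 windows shown held 7 copies in Atp8b4, 3 in Adamts14 and 1 each in Abhd15 and Myo10. The second Myo10 window, not shown, held 3. The AP-1 letters TGANTCA occurred in 1 of the 10, that of Atp8b4, and in 6.7% of all, the RUNX letters TGTGGT in 1, that of Adgrg5, and in 14.0% of all, and the E-box CANNTG in 3 and in 66.2% of all. Each motif was counted apart, so that overlapping letters may count for more than 1 motif, and a match describes the sequence only.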

How the data were processed

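The authors deposited read counts per gene as 2 tables of whole numbers, which hold the 26 libraries used here. Another 4 columns, whose names match none of the samples, were left out. Where both tables hold a library, 0 values differed. Alignment was to mm10 with STAR 2.6.1c, per the submitters' processing notes. No source used here names the counting tool or its strand setting, and the labels give a directional or an UltraII NEBNext kit without saying which library had which, so counts of genes with antisense neighbours are uncertain.

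Counts were fitted in R 4.3.3 with edgeR 4.0.16: genes kept by filterByExpr (12227, with 12184 removed), TMM scaling, and a robust quasi-likelihood model of 13 groups over all 26 libraries (13 residual degrees of freedom), tested on simulated counts. A gene was called at a Benjamini-Hochberg adjusted p below 0.05 over all tested genes. SE is the absolute log2 fold change divided by the square root of F. Exact intervals and the floor of 3 counts cover counting error only. DESeq2 1.42.0 and the settings of the closing section served as alternatives. Spans and exons are from GENCODE M21 on mm10.

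The 9 genes, the lists, the tests and the naming rule (all 9, Foxp3, Batf, the 3 nearest genes of each, the smallest-p genes of each list, and relatives) were chosen with earlier results of these data known. Contrasts that chose the genes, or share libraries with those, have no test. The 13 groups have 2 libraries each. Libraries of the germline BATFKO Treg, WT Treg and Tconv differed within groups by more than the others (chi-square per degree of freedom 21.7 to 29.9, against 3.00 to 7.79).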

Additional observations from a re-analysis of the deposited data

Results flagged for a closer look

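Among the 9 genes, 2 changed differently in the Foxp3 mutants and in Treg without BATF, by a test of the difference itself. For Lrrc75b the mean Foxp3 mutant effect exceeded the BATFcKO effect by 4.15 on the log2 scale (edgeR adjusted p 0.00048). It was higher in 4 of 4 mutant libraries than in their controls, and lower in 2 of 2 BATFcKO libraries than in YFP-sorted WT Treg. The BATFcKO libraries held 2 and 3 reads of it, and their WT Treg 6 each. For Nav2 the difference was 2.09 (edgeR adjusted p 0.011), with lower levels in all mutant libraries of both kinds and a deeper fall in BATFcKO Treg. The groups hold 2 libraries each, so the check for a single distant library, which needs at least 4, could not be run.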

How the results depend on the processing

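Of the values for single genes, 563 stayed in direction and on the same side of the threshold, 14 crossed it upward, 28 fell below it and 16 changed sign, each of the last when 1 library was left out. The calls of Lrrc75b, Abhd15 and Atp8b4 held in both Foxp3 mutants under every setting run. Over all tested genes, the calls were 749 in Foxp3R397W Treg, 1101 in Foxp3KO Treg, 249 in BATFcKO Treg, 1892 in eTreg against Teff, 2 for the Foxp3KO effect against the Foxp3R397W effect and 254 for the Foxp3 mutants against BATFcKO. Fitting only the libraries compared gave 1418, 4121, 378, 2331, 7 and 612. DESeq2 gave 394 genes and 4 of the 9 for the last difference. Without 1 library the ranges were 329 to 412, 417 to 693, 73 to 160, 1168 to 1467, 0 to 0 and 122 to 237 genes, and of the 9 genes 3 to 4, 3 to 4, 1 to 1, 5 to 7, 0 to 0 and 1 to 3. The cause of these shifts was not tested. Uncalled values that changed sign without 1 library ranged as follows. For the Foxp3KO effect against the Foxp3R397W effect, App ranged from -0.66 to 0.20, Lrrc75b from -0.68 to 0.049 and Nav2 from -0.76 to 0.093. In BATFcKO Treg, Amz1 ranged from -0.51 to 5.52, Adamts14 from -0.98 to 0.43, Abhd15 from -6.36 to 0.19, Atp8b4 from -0.41 to 0.56 and Adgrg5 from -3.87 to 3.09. Myo10 in eTreg against Teff ranged from -0.37 to 0.17, and for the Foxp3 mutants against BATFcKO Amz1 ranged from -4.46 to 1.57 and Adgrg5 from -1.76 to 5.19.

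Whether same-numbered libraries pair is not given by the labels. With 2 numbers a set, deviations from the group means correlated at 0.242 in the YFP-sorted set and at 0.0801 to 0.233 in the sorted wild-type set. Among BATFKO Treg, WT Treg and Tconv they correlated at 0.495 to 0.571. These last groups enter no tested contrast, but their libraries enter the shared estimate of the spread behind every edgeR p-value of the main fit. A replicate block gave 1115 genes in BATFcKO Treg, 3609 in eTreg against Teff and 1247 for the Foxp3 mutants against BATFcKO, with 4 of the 9 genes in the last. Pairing was not examined for the Foxp3 mutants, whose library numbers differ from those of their controls.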
